A study of Mus musculus with 6 samples.

Results

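Transcripts of 35 mouse genes that mark B cells and their subsets were followed in immune cells sorted from hearts. The genes were taken by name from the 57010 genes of the count table: chains and adaptors of the B cell receptor, its co-receptors, B lineage transcription factors, identity antigens, follicular and marginal zone markers, receptors for BAFF and APRIL, B1 and memory markers, and plasma cell genes. All 35 were found, and 34 passed the filter on low counts and were tested. The 6 libraries came from mice of the genotype written Ova DTG in the labels, with ovalbumin expressed as a transgene in the heart. All mice, controls included, had received OTI cells, CD8 T cells whose receptor recognises ovalbumin. Mice of 3 libraries are labelled ICI, for immune checkpoint inhibitors: anti-CTLA-4 (clone 9D9, 200 µg) plus anti-PD-1 (200 µg), both into the peritoneum. Mice of the other 3 libraries are labelled as given isotype control antibody. The sources used here do not give age, sex or strain of the mice, the time of sampling, the promoter of the transgene, or whether a library pools hearts.

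B cells carry a surface antibody that signals through the paired chains CD79A and CD79B, and co-receptors raise or lower the threshold of that signal. The transcription factors EBF1 and PAX5 set up and hold B cell identity, and PRDM1 (Blimp-1) ends it when a B cell becomes an antibody-secreting plasma cell. Survival of mature B cells depends on the cytokine BAFF, and the chemokine CXCL13 draws them into lymphoid follicles through the receptor CXCR5. The mouse heart is known to hold a resident and circulating pool of B cells, many of them inside its small vessels.

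The sort kept cells with CD45, the pan-leukocyte antigen, and left out those with CD90.2, the T cell antigen encoded by Thy1, which keeps B cells within the gate. Ptprc, which encodes CD45, stood at 1300 ± 107 CPM (counts per 1000000 counts of the library; SD, n = 3) in the libraries labelled ICI and 1012 ± 58.8 CPM in those labelled isotype, and Thy1 had 0 to 2 counts in every library. The titles of both groups name myocarditis, although the labels' protocols tie its induction to the checkpoint antibodies, and monocyte genes summed to 780 to 1041 CPM in the libraries labelled ICI against 4073 to 8558 CPM in those labelled isotype. No gene here checks the labels independently, so they are in doubt: genes are compared by the label as given, and an exchange of the labels would turn every direction below. The groups differed across most of the transcriptome: of 14575 genes tested, 68.9% were called at an adjusted p under 0.05, 35% higher and 33.9% lower in libraries labelled ICI (edgeR quasi-likelihood F test with Benjamini-Hochberg adjustment over all tested genes, the source of every adjusted p below). The median log2 fold change of all tested genes was 0.03. Replicate 3 of both groups stood apart from replicates 1 and 2: it held 2786 counts of Xist, a transcript of female cells, in the group labelled ICI and 1844 in the group labelled isotype, against 0 to 12 in the other libraries. Its Y-linked counts were 6 and 130, against 3620 to 5821 in the other libraries.

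Nearly all genes restricted to B cells were far more abundant in the libraries labelled ICI. Of the 34 tested genes, 27 were called higher, 2 lower (Prdm1 and Cd38) and 5 were not called (Cd72, Cd24a, Zbtb32, Sdc1 and Jchain), and the median fold was 23.0 (log2 4.52). The fold was over 10 for 22 of the 27 genes called higher. Of all tested genes, 35% were called higher and 33.9% lower, and the counts of each role group below stand beside these shares. For 27 genes every library labelled ICI lay above every library labelled isotype, and for 2 every one lay below. Over all tested genes this held for 73.5%, with 45.3% above and 28.2% below. Because 7 of the tested genes lay under the filter's cutoff of 0.413 CPM in all 3 libraries labelled isotype, they entered the test only through the group where they were high. They were Pax5, Vpreb3, Fcer2a, Tnfrsf17, Bhlhe41, Mzb1 and Iglc3, and each adjusted p given for them below carries that limit. Blk, Cr2, Ebf1, Pou2af1, Fcmr and Tnfrsf13c lay under the cutoff in 2 libraries labelled isotype, and Ms4a1 and Cd55 in 1. The filter asks for as many libraries above its cutoff as a group holds. These genes too therefore passed only with the help of libraries labelled ICI, and their adjusted p carries the same limit. In bulk RNA, fewer B cells and less RNA per B cell cannot be told apart.

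**Figure D1:**
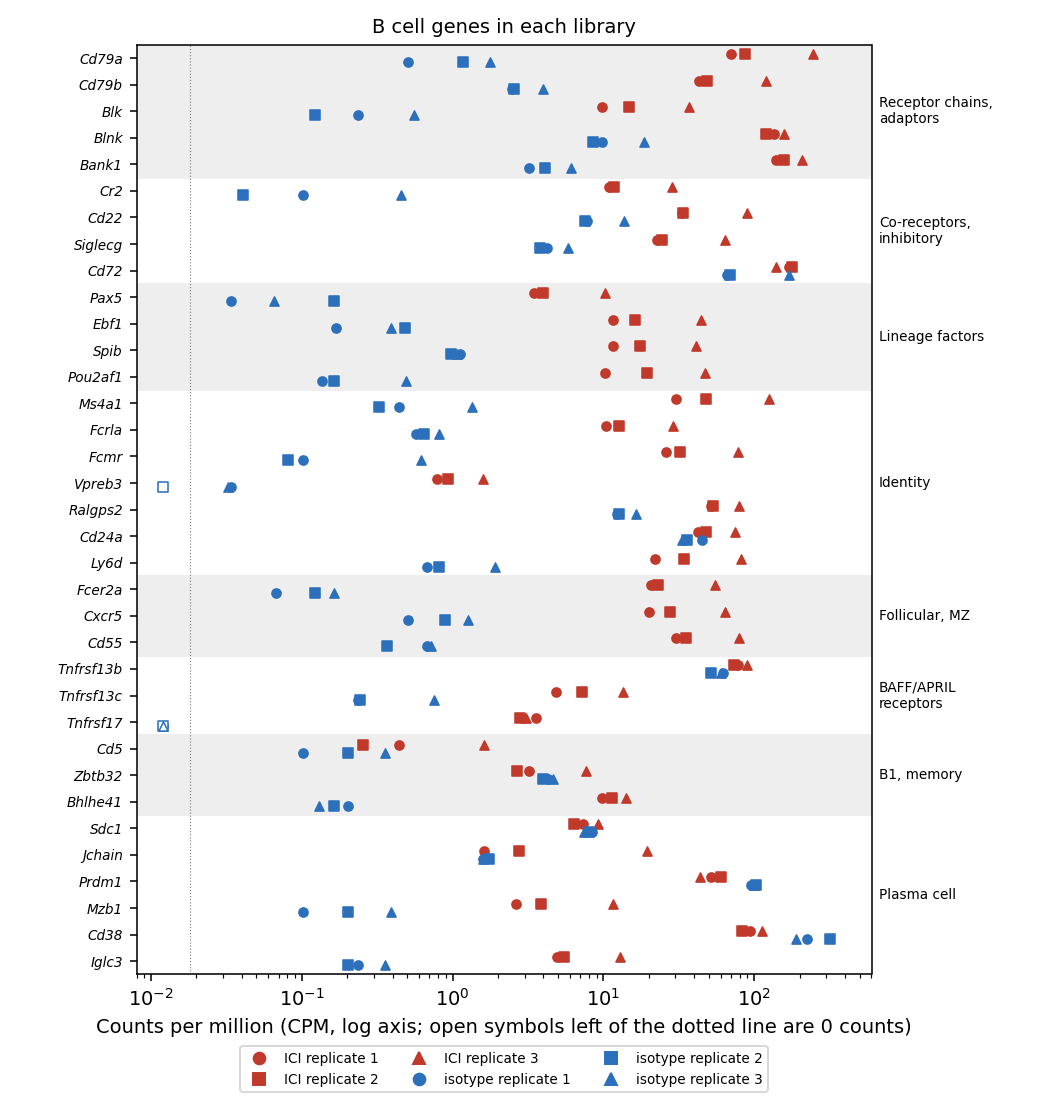
Level of each B cell gene in each of the 6 libraries, in CPM on a log axis, with genes ordered by role and a separate colour for each label. Cd79a lies between 70.0 and 244 CPM in the libraries labelled ICI and between 0.508 and 1.76 CPM in those labelled isotype, whereas Cd72, Cd24a, Zbtb32, Sdc1 and Jchain overlap.

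All 5 receptor chains and adaptors were called higher. Cd79a (ENSMUSG00000003379), one of the pair of signalling chains of the receptor, measured 70.0, 87.2 and 244 CPM in replicates 1, 2 and 3 labelled ICI and 0.508, 1.18 and 1.76 CPM in those labelled isotype. The groups were far apart, and replicate 3 was the highest of each group. The log2 fold change was 6.64 (SE 0.80; 99.5-fold, adjusted p = 0.00139). Cd79b, its partner, measured 43.0, 49.003 and 119 CPM against 2.47, 2.56 and 4.002 CPM, 20.03-fold higher (adjusted p = 0.00111). Blk, a Src-family kinase that acts just below the receptor, measured 9.78, 14.7 and 37.2 CPM against 0.237, 0.122 and 0.553 CPM, 55.0-fold higher (adjusted p = 0.00154). Replicate 3 labelled ICI stood 2.59 times above replicates 1 and 2 pooled for Cd79b and 3.02 times for Blk. Without it Cd79a was 60.5-fold and Blk 33.9-fold higher, and without isotype replicate 3 Blk was 91.0-fold higher.

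The adaptors showed another pattern among the libraries labelled ICI. Bank1 (ENSMUSG00000037922), a scaffold that links the receptor to calcium release, measured 139, 158 and 208 CPM against 3.22, 4.10 and 6.08 CPM. Its log2 fold change of 5.03 had a small error (SE 0.25; 32.6-fold, adjusted p = 2.41e-06). Blnk, the adaptor that couples the kinase SYK to its targets, measured 136, 119 and 157 CPM against 9.82, 8.56 and 18.5 CPM, 9.71-fold higher (adjusted p = 0.000124). In neither adaptor did replicate 3 labelled ICI stand more than 1.5 times above replicates 1 and 2 pooled (1.40 times for Bank1, 1.23 times for Blnk).

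Among the co-receptors and inhibitory lectins, 3 of 4 were called higher. Cr2 (CD21), the complement receptor that lowers the threshold of the receptor, measured 10.8, 11.7 and 28.4 CPM against 0.102, 0.0406 and 0.455 CPM, 67.9-fold higher (adjusted p = 0.000388). The folds of the inhibitory lectins were smaller. Siglecg measured 22.7, 24.6 and 64.0 CPM against 4.197, 3.77 and 5.82 CPM, 6.90-fold higher (adjusted p = 0.00396). Cd22 measured 33.2, 33.8 and 89.1 CPM against 7.79, 7.503 and 13.7 CPM, 4.63-fold higher (adjusted p = 0.0128), but its call was lost without isotype replicate 2 (adjusted p = 0.0547). Without ICI replicate 3 Cd22 was 3.08-fold and Siglecg 4.55-fold higher, and without isotype replicate 3 Cr2 was 182-fold higher.

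Cd72, an inhibitory lectin that binds CD100 and is also known in myeloid cells, was abundant in both groups. It measured 170, 179 and 140 CPM in the libraries labelled ICI and 65.7, 69.4 and 171 CPM in those labelled isotype. The groups overlapped because isotype replicate 3 reached the level of the libraries labelled ICI, and the log2 fold change of 0.49 (SE 0.42) was not called (adjusted p = 0.347). Without isotype replicate 3 the gene was called, 2.05-fold higher (adjusted p = 0.000144). Of its exon bases, 41.6% overlap those of Tesk1 on the opposite strand, and reads of such a pair cannot be told apart in libraries without strand.

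All 4 lineage regulators were called higher. Ebf1 (ENSMUSG00000057098), the factor that specifies the B lineage, measured 11.6, 16.2 and 44.6 CPM against 0.169, 0.487 and 0.390 CPM, a log2 fold change of 5.90 (SE 0.84; 59.8-fold, adjusted p = 0.00179). Pax5 (ENSMUSG00000014030), which commits cells to the lineage and represses other fates, measured 3.47, 3.96 and 10.2 CPM against 0.0338, 0.162 and 0.0651 CPM, or 79, 94 and 220 counts against 1, 4 and 2. This was 58.0-fold higher (SE 0.72 on the log2 scale, adjusted p = 8.5e-05). Pou2af1, the coactivator that joins octamer-binding factors on B cell promoters, measured 10.3, 19.6 and 47.5 CPM against 0.135, 0.162 and 0.488 CPM, 80.7-fold higher (adjusted p = 0.00255).

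Spib, an ETS factor that plasmacytoid dendritic cells also use, measured 11.6, 17.5 and 41.1 CPM against 1.12, 0.973 and 1.07 CPM, 18.9-fold higher (adjusted p = 0.00128). Per kilobase of transcript, its level under the label isotype (0.368 ± 0.0257 CPM per kb, SD, n = 3) was above those of the other 3 regulators (0.00983 to 0.103 CPM per kb). All 4 regulators were highest in ICI replicate 3. Without that library the folds were 35.7 for Ebf1, 38.0 for Pax5, 48.4 for Pou2af1 and 12.2 for Spib. Without isotype replicate 2, where 4 of its 7 counts in that group lay, Pax5 was 93.1-fold higher, and without isotype replicate 3 Pou2af1 was 141-fold higher.

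Since Ebf1 and Pou2af1 were higher with the other B cell genes, the promoters of the set were searched for the motifs tied to these proteins. RefSeq promoter windows of 250 bases before the start (build GRCm38.p6) matched 27 of the 35 genes. The octamer bound by the partners of POU2AF1 was searched as ATGCAAAT on both strands. It was found in Blnk and Vpreb3 and in 1.6% of all 32851 windows. The EBF motif, searched as the palindrome CCCNNGGG, was found in Bank1, Cd22, Spib, Cd55 and Sdc1 and in 11.8% of all windows. The windows of both octamer genes and of the first EBF genes by role order are shown, 5′ to 3′ on the strand of the gene, with the motif in capitals:

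Blnk, chr19:40994222-40994471, minus strand: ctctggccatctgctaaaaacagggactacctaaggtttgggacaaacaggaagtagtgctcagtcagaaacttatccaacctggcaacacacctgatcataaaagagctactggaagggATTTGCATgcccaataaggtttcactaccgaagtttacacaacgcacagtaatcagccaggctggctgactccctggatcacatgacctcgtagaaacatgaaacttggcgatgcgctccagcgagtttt

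Vpreb3, chr10:75948050-75948299, plus strand: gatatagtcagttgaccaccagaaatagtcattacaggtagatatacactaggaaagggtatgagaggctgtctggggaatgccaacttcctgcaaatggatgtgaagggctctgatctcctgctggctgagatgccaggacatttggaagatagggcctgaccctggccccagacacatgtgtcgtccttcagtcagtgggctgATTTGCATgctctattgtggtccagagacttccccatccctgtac

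Bank1, chr3:136326067-136326316, minus strand: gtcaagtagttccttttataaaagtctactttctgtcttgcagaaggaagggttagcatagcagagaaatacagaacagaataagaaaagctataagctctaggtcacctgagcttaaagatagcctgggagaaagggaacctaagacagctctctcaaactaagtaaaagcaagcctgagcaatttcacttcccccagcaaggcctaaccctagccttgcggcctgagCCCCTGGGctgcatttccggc

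Cd22, chr7:30879029-30879278, minus strand: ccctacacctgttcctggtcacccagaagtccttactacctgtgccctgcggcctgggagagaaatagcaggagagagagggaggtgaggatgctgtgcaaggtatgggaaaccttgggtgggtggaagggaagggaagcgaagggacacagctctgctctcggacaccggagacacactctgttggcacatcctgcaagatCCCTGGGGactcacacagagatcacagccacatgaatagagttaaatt

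The octamer lay as ATTTGCAT, the reverse complement of the searched letters, with its first base 130 bases before the start of Blnk and 45 bases before that of Vpreb3. The EBF letters began 21 bases before the start of Bank1, as CCCCTGGG, and 48 bases before that of Cd22, as CCCTGGGG. These are matches of letters in a window, and no binding was measured. Folds of called genes with a match ran from 4.63-fold (Cd22) to 69.3-fold (Cd55), and Sdc1 was not called.

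Of the 7 identity genes, 6 were called higher. Ms4a1 (ENSMUSG00000024673), which encodes CD20, measured 30.3, 47.6 and 126 CPM against 0.440, 0.324 and 1.33 CPM, 80.2-fold higher (SE 0.89 on the log2 scale, adjusted p = 0.00238). Fcmr, the receptor for IgM, measured 25.8, 32.0 and 77.9 CPM against 0.102, 0.0811 and 0.618 CPM, 136-fold higher (adjusted p = 0.000929). Ly6d, a surface protein that appears with commitment to the B lineage, measured 21.98, 34.2 and 82.3 CPM against 0.677, 0.811 and 1.92 CPM, 34.2-fold higher (adjusted p = 0.00228). Replicate 3 was the highest library of each group for all 3 genes. Without ICI replicate 3 they were 47.5-fold, 89.96-fold and 21.5-fold higher, and without isotype replicate 3 they were 145-fold, 391-fold and 51.9-fold higher, in the order given.

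Fcrla, an intracellular relative of Fc receptors, measured 10.4, 12.7 and 28.8 CPM against 0.575, 0.649 and 0.813 CPM, 21.7-fold higher (adjusted p = 0.000234). Vpreb3, a protein of the endoplasmic reticulum in B cells, was sparse: 18, 22 and 34 counts against 1, 0 and 1. The ratio of its pooled CPM was 46.2, with an exact 95% counting interval from 12.3 to 389 (adjusted p = 1.82e-05). Ralgps2, an exchange factor for Ral GTPases, had the smallest fold among the genes listed as restricted to B cells, at 51.6, 53.3 and 78.8 CPM against 12.4, 12.7 and 16.5 CPM (3.82-fold, adjusted p = 1.36e-05). Cd24a, the heat-stable antigen of many blood cells, measured 42.6, 47.7 and 75.0 CPM against 44.7, 36.0 and 33.1 CPM. Its groups overlapped, and the 1.25-fold difference was not called (adjusted p = 0.214).

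The 3 follicular and marginal zone genes were all called higher. Their median log2 fold change of 6.11 (median of all tested genes 0.03) is that of Cd55, which other heart leukocytes are also known to express. Of the 3, Fcer2a lay under the filter's cutoff in every library labelled isotype and Cd55 in 1 of them. Fcer2a (ENSMUSG00000005540), which encodes CD23, the low-affinity IgE receptor of follicular B cells, measured 20.8, 23.1 and 55.1 CPM against 0.0677, 0.122 and 0.163 CPM. In counts this was 475, 548 and 1186 against 2, 3 and 5. The log2 fold change was 7.86 (SE 0.68; 232-fold, adjusted p = 8.32e-05). Cxcr5, the receptor for CXCL13, measured 20.005, 27.7 and 63.7 CPM against 0.508, 0.892 and 1.27 CPM, 35.6-fold higher (adjusted p = 0.000976) and 23.6-fold higher without ICI replicate 3. Cd55, a surface regulator of complement, measured 30.3, 35.3 and 79.8 CPM against 0.677, 0.365 and 0.716 CPM, 69.3-fold higher (adjusted p = 0.000224). For all 3 genes the lowest library labelled ICI was over 10 times the highest labelled isotype.

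The receptors of BAFF and APRIL had different folds. Tnfrsf13c, the BAFF receptor of mature B cells, measured 4.87, 7.17 and 13.6 CPM against 0.237, 0.243 and 0.748 CPM, 17.3-fold higher (adjusted p = 0.000308) and 29.3-fold higher without isotype replicate 3. Tnfrsf17 (BCMA), the receptor of antibody-secreting cells, had 81, 66 and 66 counts in the libraries labelled ICI and 0 in each library labelled isotype. With 3 counts over that group as the floor, it was at least 88.6-fold higher (adjusted p = 1.15e-05). Unlike the BAFF receptor, it was at one level in the libraries labelled ICI (3.55, 2.78 and 3.07 CPM), and replicate 3 stood at 0.970 times the CPM of replicates 1 and 2 pooled. Tnfrsf13b (TACI), which is also known on macrophages, was abundant in both groups, at 77.7, 73.2 and 89.2 CPM against 61.7, 51.6 and 60.4 CPM. It was called 1.20-fold higher (adjusted p = 0.034), and that call was lost without ICI replicate 1 or 3, without isotype replicate 2 or 3, and under other settings given in the closing section.

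The genes of B1 and memory B cells did not move together. Bhlhe41 (ENSMUSG00000030256), a repressor needed by B1a cells and also found in tissue macrophages, measured 9.83, 11.3 and 14.0 CPM against 0.203, 0.162 and 0.130 CPM. Its log2 fold change was 5.91 (SE 0.28, 60.1-fold, adjusted p = 1.42e-07), and it passed the filter only through the libraries labelled ICI. Of its exon bases 19% overlap an opposite-strand transcript. Zbtb32, a repressor of memory B cells and of effector lymphocytes, measured 3.20, 2.66 and 7.62 CPM against 4.26, 3.97 and 4.62 CPM and was not called (log2 fold change -0.16, adjusted p = 0.708). ICI replicate 3 was the highest and ICI replicate 2 the lowest of all 6 libraries. Without ICI replicate 3 the gene was called lower, with a log2 fold change of -0.72. Cd5, a surface marker of B1a cells and of T cells, was too sparse for the test, with 10, 6 and 35 counts against 3, 5 and 11.

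Plasma cell genes moved in both directions: of 6 tested, 2 were called higher, 2 lower and 2 not called. Mzb1, a chaperone of antibody secretion that marginal zone and B1 cells also express, measured 2.63, 3.84 and 11.5 CPM against 0.102, 0.203 and 0.390 CPM, 21.4-fold higher (adjusted p = 0.00353). It was 12.04-fold higher without ICI replicate 3 and 32.8-fold higher without isotype replicate 3, and 57.2% of its exon bases lie in an overlapping Spata24 model. Iglc3, a lambda light chain constant gene, measured 4.96, 5.48 and 12.9 CPM against 0.237, 0.203 and 0.358 CPM, 24.4-fold higher (adjusted p = 0.000124). Its near-identical copy Iglc2 makes the value uncertain between these genes.

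Prdm1 (ENSMUSG00000038151), which drives plasma cell fate and also acts in macrophages and other lymphocytes, measured 51.8, 60.2 and 43.8 CPM in the libraries labelled ICI and 95.2, 102 and 99.0 CPM in those labelled isotype. The values did not overlap, and the gene was 2.18-fold lower (SE 0.12 on the log2 scale, adjusted p = 2.4e-05). Cd38, an ectoenzyme of plasma cells and of activated myeloid cells, measured 94.1, 82.9 and 112 CPM against 224, 317 and 189 CPM, 2.92-fold lower (SE 0.21 on the log2 scale, adjusted p = 0.000454). Sdc1 (CD138), the classical surface marker of plasma cells, measured 7.33, 6.37 and 9.15 CPM against 8.36, 8.03 and 7.45 CPM and was not called (adjusted p = 0.154).

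Jchain (ENSMUSG00000067149), which joins the units of secreted IgM and IgA, measured 1.62, 2.74 and 19.6 CPM against 1.59, 1.74 and 1.59 CPM. A single library, ICI replicate 3, held 421 of the 523 counts of its group, while ICI replicate 1 lay within the range of the libraries labelled isotype. The 4.11-fold difference was not called (SE 1.0997 on the log2 scale, adjusted p = 0.159), and without ICI replicate 3 it was 1.19-fold. The ratio of that library to replicates 1 and 2 pooled, 8.92, was the highest of all 35 genes.

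**Figure D2:**
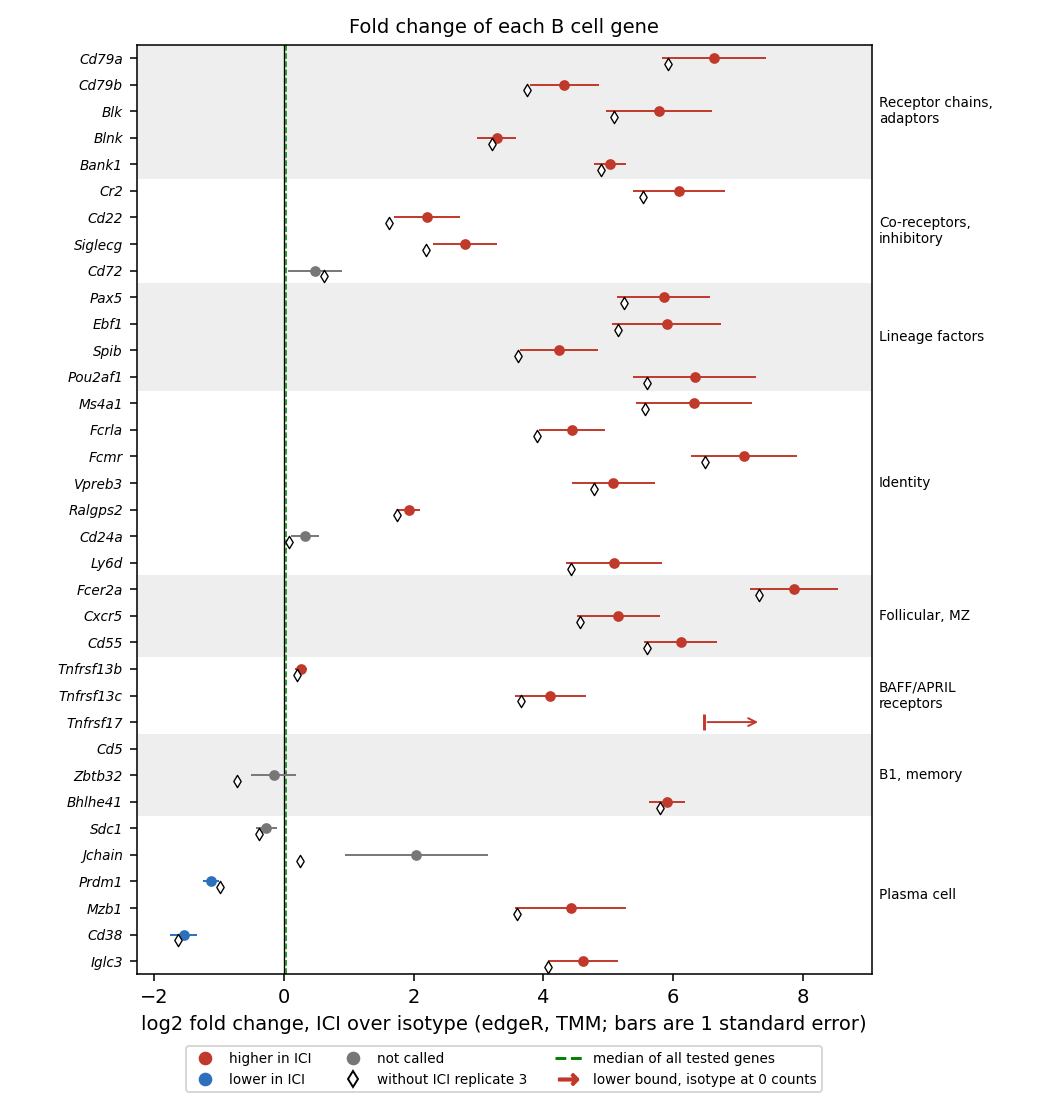
Log2 fold change of each tested B cell gene, libraries labelled ICI over those labelled isotype, ordered by role, with bars of 1 SE from the edgeR fit and a mark for each call. Fcer2a (7.86) lies far to the right of 0, and Prdm1 (-1.13) and Cd38 (-1.55) are the called genes to the left.

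Genes were also divided by where they are known to be expressed. Of 18 members listed from background knowledge as restricted to B cells, 18 were called higher, with a median fold of 44.2 (35% of all tested genes were called higher). Of the 18, 4 lay under the filter's cutoff in all 3 libraries labelled isotype. They passed it only through the group where they were high. Blk, Cr2, Ebf1, Pou2af1, Fcmr, Tnfrsf13c and Ms4a1 lay under it in 1 or 2 of these libraries. They too needed libraries labelled ICI to pass. Of 13 tested members that other heart leukocytes are known to express, 7 were called higher, 2 lower and 4 not called, with a median fold of 1.40. Tnfrsf17, Mzb1 and Jchain are on neither list: the first 2 were called higher, and Jchain, also a gene of the B lineage, was not called. Summed over the 18 restricted genes, the libraries labelled ICI held 501, 604 and 1286 CPM and those labelled isotype 29.2, 31.6 and 49.3 CPM. Summed over the 14 shared genes, they held 680 to 916 CPM and 521 to 603 CPM. The mean sum of the 18 restricted genes under the label isotype was 36.7 CPM. Ralgps2 (13.9 CPM) and Cd22 (9.65 CPM) held much of it, while Cd79a stood at 1.15 CPM. Whether other cells supplied these counts was not tested.

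**Figure D3:**
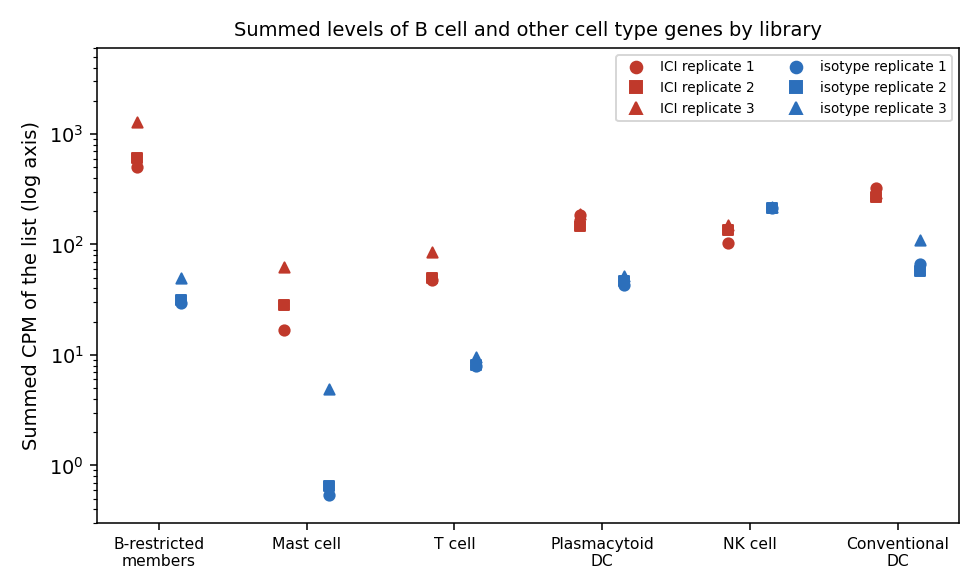
Summed CPM of marker lists in each library, on a log axis, with a separate colour for each label. The genes restricted to B cells sum to between 501 and 1286 CPM in the libraries labelled ICI and between 29.2 and 49.3 CPM in those labelled isotype, and mast cell genes are highest in replicate 3 of both groups.

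Per kilobase of transcript, the order of the genes differed between the groups. In the libraries labelled ICI, Cd79a had the highest level of the 35 genes, 91.8 ± 65.8 CPM per kb (SD, n = 3). Ly6d (62.0 ± 42.8), Cd79b (49.3 ± 29.7) and Cd72 (47.6 ± 6.01 CPM per kb) came next, and the ranges of mean ± SD of these 4 genes overlap. In the libraries labelled isotype, Cd38 led with 62.6 ± 17.0 CPM per kb. It was followed by Cd72 (29.8 ± 17.4), Tnfrsf13b (20.4 ± 1.93), Prdm1 (17.7 ± 0.633) and Cd24a (14.7 ± 2.36 CPM per kb), while Cd79a stood at 0.787 ± 0.429 CPM per kb. None of these 5 leading genes is on the list of genes restricted to B cells.

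Within a library, counts relative to those of Cd79a show which genes kept proportion with the receptor chain. In replicates 1, 2 and 3 labelled ICI, Ms4a1 had 43.3%, 54.6% and 51.6% of the Cd79a count, Ebf1 16.6%, 18.6% and 18.3%, and Pax5 4.95%, 4.55% and 4.19%. Fcmr had 36.9%, 36.7% and 31.9%. Other genes were lower relative to Cd79a in replicate 3: Bank1 had 199%, 181% and 85.2% of its count, Blnk 195%, 137% and 64.3%, Bhlhe41 14.0%, 13.01% and 5.75%, and Tnfrsf17 5.08%, 3.19% and 1.26%. The first 4 genes kept a similar ratio in the libraries labelled ICI, whose Cd79a level ran from 70.0 to 244 CPM, and the other 4 did not. Under the label isotype, where Cd79a had 15, 29 and 54 counts, the ratios were different. Ms4a1 had 86.7%, 27.6% and 75.9% of the Cd79a count there, and Ebf1 33.3%, 41.4% and 22.2%. Pax5 had 6.67%, 13.8% and 3.70%, and Fcmr 20%, 6.90% and 35.2%. Bank1 had 633%, 348% and 346%, Cd22 1533%, 638% and 778%, and Ralgps2 2440%, 1083% and 937%.

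Replicate 3 labelled ICI was the highest of its group for 32 of the 35 genes, whereas it was the highest for 42.6% of all tested genes. It exceeded 2 times the CPM of replicates 1 and 2 pooled for 23 of the 35 genes, with ratios from 2.24 to 8.92. Among all tested genes 2.89% passed that ratio, and the median ratio was 1.04. The other 12 genes had ratios from 0.781 to 1.84. They were Vpreb3, Cd24a, Ralgps2, Bank1, Sdc1, Bhlhe41, Cd38, Blnk, Tnfrsf13b, Tnfrsf17, Cd72 and Prdm1. Isotype replicate 3 was the highest of its group for 23 of the 34 genes with a count there (42.8% of all tested genes).

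**Figure D4:**
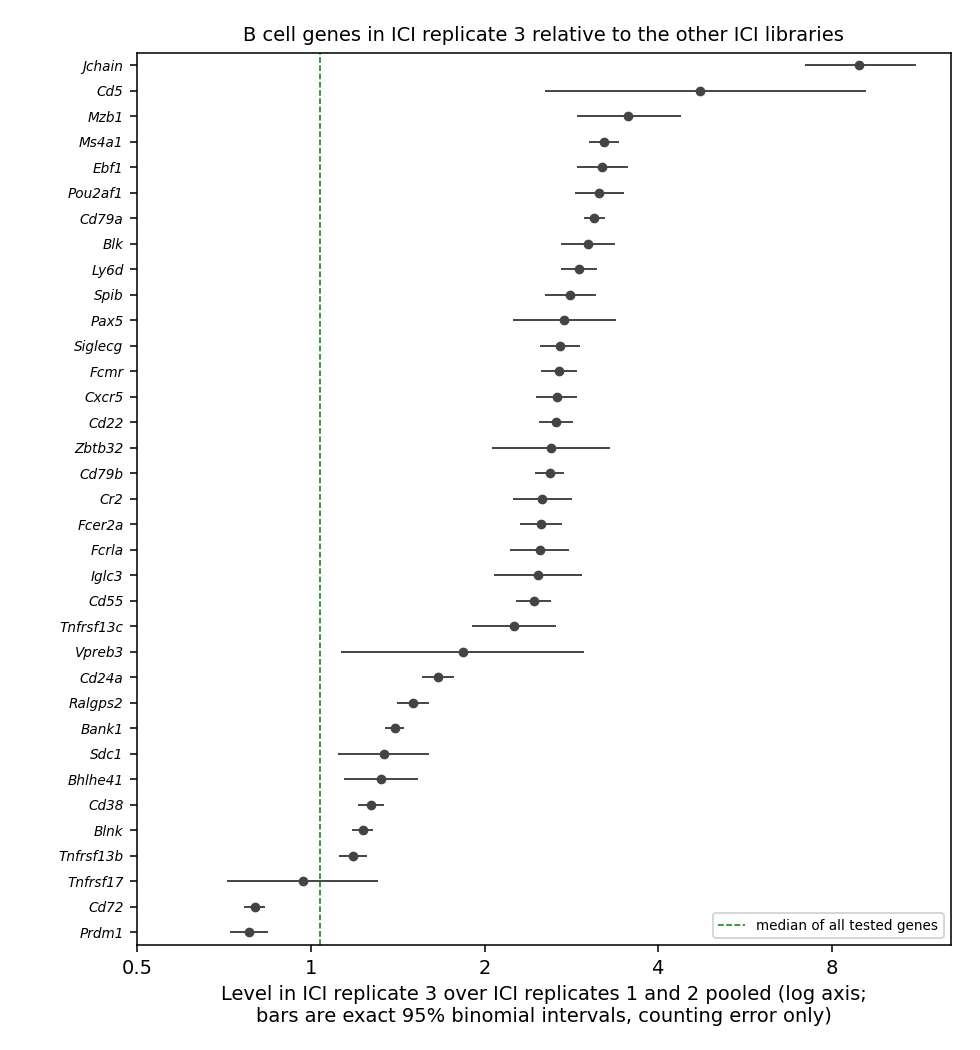
Ratio of replicate 3 labelled ICI to replicates 1 and 2 pooled, in CPM, for each of the 35 genes, on a log axis. Jchain has the highest ratio (8.92) and Prdm1 the lowest (0.781), and 23 genes lie above 2.

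The Xist and Y-linked counts above and the mast cell genes moved with this library: the 5 mast cell markers summed to 62.4 CPM in ICI replicate 3, against 16.8 and 28.5 CPM in replicates 1 and 2, and to 4.95 CPM in isotype replicate 3, against 0.542 and 0.649 CPM. Their part in the result was not tested. With replicate 3 of both groups left out, Cd79a was 83.1-fold higher, Ms4a1 86.5-fold, Pax5 33.4-fold and Fcer2a 197-fold. The differences of these 4 genes were thus present in replicates 1 and 2 alone, although Pax5 and Fcer2a passed the filter only through the group where they were high. Ms4a1 also needed libraries labelled ICI to pass it. Without ICI replicate 3, 13 called genes had folds smaller by over 1.5 times, and without isotype replicate 3, 8 had folds larger by as much, as given gene by gene above.

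B lineage genes outside the set were listed to see whether they moved with it. Of 25 tested, 19 were called higher, 4 lower and 2 not called (35% higher and 33.9% lower over all tested genes). The median of their log2 fold changes was 2.41. Ighm, the IgM heavy chain, measured 637, 630 and 972 CPM against 60.6, 48.6 and 87.7 CPM, 9.86-fold higher (adjusted p = 4.56e-05). S1pr1, the receptor that guides lymphocytes out of tissues and that endothelial cells also carry, was 106-fold higher, at 158 ± 38.2 CPM against 1.28 ± 0.148 CPM (adjusted p = 4.79e-08). Cd83 was 4.85-fold and Foxo1 3.40-fold higher. Cd180, a Toll-like receptor homologue of B cells and macrophages, was 3.17-fold lower (35.3 ± 7.25 against 97.6 ± 4.38 CPM, adjusted p = 1.08e-05).

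Genes of B cell progenitors and germinal centres were scarce. Of 13 listed, 5 were tested (35% of all tested genes were called higher and 33.9% lower). Gcsam was called higher (3.28-fold), Fas (1.96-fold), S1pr2 (1.68-fold) and Cd93 (1.28-fold) lower, and 1 was not called. Rag2 and Igll1, which assemble and escort the first receptor in progenitors, had 0 counts in all 6 libraries, and Rag1 had 3 counts in all, all under the label ICI. Rgs13, a germinal centre gene, had 3, 7 and 10 counts in the libraries labelled ICI and 0 in each labelled isotype.

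Signalling genes below the receptor that many leukocytes share were called in both directions, as all tested genes were (35% higher and 33.9% lower). Of 20 tested, 9 were called higher, 9 lower and 2 not called, and the median of their log2 fold changes was -0.11. Prkcb, the protein kinase that carries the signal to NF-κB, was 2.43-fold higher (213 ± 19.5 against 76.3 ± 11.5 CPM, adjusted p = 4.16e-06), and the exchange factor Vav2 was 2.17-fold higher. Ptpn6 (SHP-1), the phosphatase recruited by CD22 and CD72, was 2.27-fold lower (477 ± 18.0 against 943 ± 42.0 CPM, adjusted p = 2.59e-06), and Vav1 was 1.77-fold lower.

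Ligands that act on B cells, tested for 5 of 7 genes, were called higher for 2 and lower for 2. Over all tested genes 35% were called higher and 33.9% lower. Cxcl13, the ligand of CXCR5, measured 3.60, 3.04 and 5.02 CPM in the libraries labelled ICI and 0.237, 0.122 and 0.163 CPM in those labelled isotype, 18.6-fold higher (adjusted p = 6.21e-06). Il6, a growth factor of plasma cells whose receptor is outside the set, was 1.95-fold higher. Tnfsf13b, which encodes BAFF, was lower, at 21.1, 19.7 and 17.1 CPM against 29.1, 26.2 and 43.5 CPM (1.96-fold, adjusted p = 0.00165). C3, whose fragments bind CD21, was 8.85-fold lower, at 133 ± 37.0 against 1029 ± 139 CPM (adjusted p = 4.43e-05). BAFF thus had its lower level in the libraries where its receptor Tnfrsf13c had the higher one.

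Markers of other cells that the gate could hold also differed between the groups. Calls of these and of the myeloid lists stand beside 35% higher and 33.9% lower over all tested genes. T cell genes summed to 47.8 to 86.4 CPM under the label ICI and 8.02 to 9.60 CPM under the label isotype, with 5 of 8 tested genes called higher and 1 lower; Cd4 was 19.1-fold and Cd2 20.3-fold higher, while the defining marker Thy1 was at or near 0 and Cd3g stood at 0.919 ± 0.285 against 0.256 ± 0.128 CPM. Plasmacytoid dendritic cell genes, which share Spib with the set, summed to 146 to 188 and 43.3 to 51.6 CPM, with 5 of 8 called higher, 1 lower and 2 not called. Their marker Tcf4, also a B cell gene, was 3.80-fold higher (adjusted p = 2.7e-07). Conventional dendritic cell genes summed to 267 to 325 and 57.5 to 110 CPM, with 4 of 7 called higher and 1 lower. Mast cell genes were called higher for 5 of 5, and Mcpt4 was at 0 in isotype replicates 1 and 2.

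Myeloid and innate lymphoid lists moved in both directions. Macrophage genes, 5 of 8 called higher and 1 lower, summed to 11096 to 12507 CPM under the label ICI and 6376 to 7667 CPM under the label isotype. Monocyte genes, 4 of 5 called lower, summed to 780 to 1041 and 4073 to 8558 CPM. Neutrophil genes, 3 of 7 called higher and 1 lower, summed to 519 to 568 and 390 to 489 CPM. Natural killer genes summed to 102 to 149 and 214 to 219 CPM, although 6 of 7 were called higher; the 1 called lower, Klrk1, an activating receptor that other lymphocytes also carry, stood at 35.5 ± 8.19 against 184 ± 6.36 CPM. Type 2 innate lymphoid genes were called higher for 2 of 4 tested and lower for 1, and their marker Il13 was at 0 in all 6 libraries. Cells that CD45 should leave out left traces: erythroid (4 of 4 tested), fibroblast (3 of 4), endothelial (3 of 4 tested) and cardiomyocyte genes (4 of 4) were called higher, and their sums stayed at or below 163 CPM. The part of these cells in the levels of the B cell genes was not tested.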

How the data were processed

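RNA of sorted cells was made into SMART-seq V4 non-directional libraries, per the labels' protocols. For the 6 libraries the authors deposited raw, unnormalized counts by Ensembl identifier in 1 table. STAR 2.7.10a, Salmon 1.10.1 and build GRCm39 are named per the submitters' processing notes, and the sources used here do not give the annotation, strand setting or any filter. The counts are whole numbers, 21528274 to 30736316 per library, and entered the tests as they stand. Without strand, reads of overlapping genes cannot be told apart: 8 of the 35 genes share exon bases with another gene in GENCODE annotation of build GRCm38, which served for symbols (91.3% of identifiers matched), lengths and overlaps only.

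Genes were tested with edgeR 4.0.16 (quasi-likelihood F test, R 4.3.3, limma 3.58.1) with TMM factors, robust dispersions and filterByExpr at a minimum count of 10, fitted on all 6 libraries; 14575 genes passed and p-values were adjusted over them by the Benjamini-Hochberg method. The SE is the log2 fold change divided by the square root of F. CPM are on library totals, so fitted folds can differ from ratios of CPM. Intervals (exact 95% binomial) and the floor of 3 counts over a group cover counting error only, as reads without molecular identifiers are not independent molecules. Tests on simulated data preceded the fit. Whether replicates came from separate animals is not stated beyond their labelling as biological replicates; no 2 replicates of a group agreed within sampling noise, and p-values measure the spread between these libraries. The 35 genes and the gene lists were chosen with earlier results of these data known. The text names all 35 genes, from each other list up to 4 genes with the smallest p, Ptprc, Thy1 and Ighm, and listed markers at 0; 1 gene that the rule takes is not reported here. The alternatives are in the closing section.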

Additional observations from a re-analysis of the deposited data

How the results depend on the processing

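Of the 34 tested genes, 29 kept their direction and call under all 18 alternatives, or the 17 that could test them (Vpreb3 and Jchain): DESeq2 1.42.0, limma-voom, other scalings, no filter or a strict one (50 counts in 3 libraries), no robust estimation, the legacy fit (chosen after seeing the data), a test against 1.5-fold (glmTreat), a replicate block, each library left out, and replicate 3 of both groups left out. The exceptions were Cd22, Cd72, Cd24a, Tnfrsf13b and Zbtb32. Tnfrsf13b was not called with no filter, with glmTreat, without ICI replicate 1 or 3, without isotype replicate 2 or 3, and without replicate 3 of both groups. Cd24a turned to a log2 fold change of -0.0392 without replicate 3 of both groups, and Zbtb32 to 0.0247 with upper-quartile factors, 0.052 with library totals, and 0.0219 and 0.112 without ICI replicate 1 or 2; neither was called there. Without ICI replicate 3 Zbtb32 was called at -0.723, and the 6 libraries left out in turn gave it -0.723 to 0.112. Upper-quartile factors and library totals moved the median of all genes from 0.03 to 0.21 and 0.23 and the share of calls that were higher from 50.8% to 61.5% and 62.7%. Over the libraries left out in turn, 25 to 28 of the 35 genes were called higher and 2 to 3 lower. The replicate block called 5079 genes higher and 4912 lower, against 5102 and 4938. Deviations of same-numbered libraries correlated at 0.0351, 0.0609 and 0.125, and ICI replicate 2 correlated best with another number, so the numbers were not taken as pairs.

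Small lists moved more. With replicate 3 of both groups left out, 1 B1 gene was called lower and 0 neutrophil genes; with the replicate block, 2 neutrophil genes. With glmTreat the counts were 4 higher and 4 lower for receptor signalling, 1 lower for progenitor and germinal centre genes, 1 higher for ligands, 3 higher and 0 lower for macrophages, 1 higher and 0 lower for neutrophils, and 0 lower for T cells. DESeq2 and library totals called 0 T cell and 0 neutrophil genes lower. The strict filter, which leaves fewer genes, gave 3 T cell genes higher and 0 lower, 0 neutrophil genes lower, 2 plasmacytoid genes, 1 endothelial gene and 2 progenitor genes higher. Upper-quartile factors and library totals each called 2 progenitor genes higher; with no filter 3 progenitor and 3 mast cell genes were called higher. Leaving out single libraries gave 1 to 2 B1 genes higher and 0 to 1 lower, 1 to 2 progenitor genes higher, 3 to 5 T cell genes higher and 0 to 1 lower, 1 to 2 plasmacytoid genes lower and 0 to 3 neutrophil genes lower. The cause of these shifts was not tested. Genes with under 10 counts in a group, such as Pax5 and Vpreb3, have folds limited by depth.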
